A study of Mus musculus with 2 samples.

Results

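Receptors of the gp130 cytokine family and the JAK-STAT3 pathway below them were examined in Neuro2a cells, a mouse neuroblastoma line with many properties of sympathetic neurons. The 10 genes were Il11, a ligand, the receptor chains Il6st, Lifr, Osmr, Cntfr and Il6ra, the kinases Jak1 and Jak2, the transcription factor Stat3 and the inhibitor Socs3. All probe sets that the platform annotation assigns to 1 of these genes alone were taken, which gave 10 of 18193 genes and 27 of 45037 probe sets. The rule for the probe sets uses no measured value.

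One culture was transfected with control siRNA (siControl) and the other with siRNA against the coding region of Cpeb1 mRNA (siCPEB1), both for 24 hours. From each, 100 ng of total RNA was used for 1 Affymetrix Mouse Genome 430 2.0 array. Both groups share the cell line and the transfection procedure. The number of siRNAs against Cpeb1 was not stated. Because each condition has 1 array, nothing was tested, and every ratio describes a pair of cultures whose own variation was not measured.

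Cytokines of this family, such as interleukin 6, interleukin 11, leukemia inhibitory factor and ciliary neurotrophic factor, signal through the shared receptor chain gp130, which Il6st encodes. A ligand-specific chain (Il6ra, the interleukin 11 receptor or Cntfr) brings interleukin 6, interleukin 11 or ciliary neurotrophic factor to gp130. Depending on the cytokine, gp130 pairs with itself or with the chains that Lifr or Osmr encode. The kinases JAK1 and JAK2, bound to these chains, phosphorylate STAT3, which enters the nucleus and activates genes that include its own inhibitor Socs3. In sympathetic neurons, leukemia inhibitory factor and ciliary neurotrophic factor are known for a switch of transmitter and for the induction of the neuropeptide Vip.

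STAT3 binds DNA at a short palindrome, so the promoters of the 10 genes were searched for TTCNNNGAA, which reads the same on both strands. The windows were those of RefSeq (GRCm38.p6), from 250 bases before to 50 after a transcript start, and all 10 genes had at least 1. Only Socs3 held a match, 154 bases before the transcript start of its window. With 10 bases on either side, the match spans chr11:117969502-117969530 on the minus strand. That stretch lies inside the annotated extent of Socs3 (117966079 to 117970336), so the transcript start of this window is an internal one. The motif was present in 9.55% of 27025 genes with a window. Of 26 genes with a window in a list of 30 known STAT3 targets, 4 held it. The Socs3 site and 1 site of each of these genes are shown (for Bcl6, which held 4 in the windows of its starts, the one nearest to a start) with the motif in capitals, because they are the inhibitor and the listed targets with a match. Over the 10 other lists together, 12 of 90 genes with a window held the motif.
Socs3: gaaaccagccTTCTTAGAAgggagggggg
Icam1: ggcgcgaggtTTCCCGGAAagtggccccg
Bcl6: atcgactacgTTCCGGGAAtgagagggct
Zfp36: acagcctgacTTCTGCGAAccgacagtcg
Gfap: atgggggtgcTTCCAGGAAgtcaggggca
Flanks included, the other sites lie at chr9:21015888-21015916 (Icam1, plus strand), chr16:23981353-23981381 (Bcl6, minus strand), chr7:28379227-28379255 (Zfp36, minus strand) and chr11:102897184-102897212 (Gfap, minus strand). The Bcl6 site belongs to a downstream start, because a further match of that gene (chr16:23988952-23988980) lies in the window of a start upstream of it. The printed sites of Icam1, Bcl6 and Gfap, but not those of Socs3 and Zfp36, also fit the stricter form TTCCNGGAA, which 1.35% of genes held. A match describes letters only, and a window without one says nothing about STAT3.

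The signals are MAS5 intensities on a linear scale, with array medians of 21.0 (siControl) and 21.5 (siCPEB1). Log2 ratios put siCPEB1 over siControl and follow division of each array by its 75th percentile (154 and 158). The signal filter asked for the array median in one array and no less than the 25th percentile (5.06 and 5.61) in the other. A probe set or gene that passed is called higher or lower here when its ratio was above 2 or below 0.5. The SD of log2 ratios between passing probe sets of the same gene, over 5535 genes, was 0.37, and 0.56, 0.29 and 0.18 within the dim, middle and bright classes, 3 classes of equal size by mean signal. This spread is technical in part and holds nothing of the spread between cultures. The siRNA target Cpeb1 read 302 and 38.5 (log2 ratio -3.02). The 3-prime over 5-prime signal ratio was 0.798 and 0.782 for Gapdh, and 1.27 and 1.35 for Actb. Of the markers of sympathetic neuroblasts, 10 of 11 were above the array median in each array, and their summed signal was 8098 in siControl and 11306 in siCPEB1. Of the 10 that passed, 5 (50%) were called higher, against 4.55% of all passing genes, and none lower, with a median log2 ratio of 1.09. The marker lists were chosen with earlier results of these data known, so this share and those of the other markers are descriptions only. Called higher were Isl1 (224 and 1036), Gata3 (46.0 and 172), Mycn (296 and 759), Phox2a (565 and 1443) and Ddc (313 and 746). The other passing probe sets of Mycn had log2 ratios of 0.66 and -0.97. Of the 10, 8 had log2 ratios above 0 and 2 below. The lower ones were Gata2 (584 and 416, log2 ratio -0.53) and Stmn2 (2556 and 2080, log2 ratio -0.34). Of 25 markers of other cell types, 20 were below the median in siControl and 18 in siCPEB1. Their summed signals, siControl first, were 109 and 398 for fibroblasts, 62.6 and 103 for glia, 82.7 and 106 for haematopoietic cells, and 85.2 and 185 for endothelium. Called higher among these were Vwf (18.0 and 77.6, at least 3.60-fold), Col1a2 (42.3 and 309) and Tyrobp (9.62 and 22.8, at least 1.06-fold). They were 1 of 2 passing markers each of endothelium, fibroblasts and haematopoietic cells (50%, against 4.55% of all passing genes). The 1 passing marker of glia was not called, and none was called lower. Markers that did not pass went both ways, such as Dcn (1.53) and Lum (-0.99). The part of these differences in the values below was not tested. In RNA from whole cultures, fewer cells with a transcript and less transcript per cell cannot be told apart.

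Of the 27 probe sets, 16 from 7 genes passed the filter, among them probe sets of Il6st, Cntfr, Jak1, Jak2, Stat3, Socs3 and Il11. None of the probe sets of Lifr, Osmr and Il6ra passed. The 16 divided evenly, 8 with a log2 ratio above 0 and 8 below. One, of Il6st, was called lower and none was called higher, where 4.55% of all 23686 passing probe sets were called lower and 4.11% higher. At 1 probe set per gene, the 7 genes had a median log2 ratio of 0.02, from -0.66 for Il6st to 0.72 for Il11, and the median of all 11562 passing genes was 0.00. The lowest and the highest of the 7 were thus the shared receptor chain and a ligand.

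**Figure D1:**
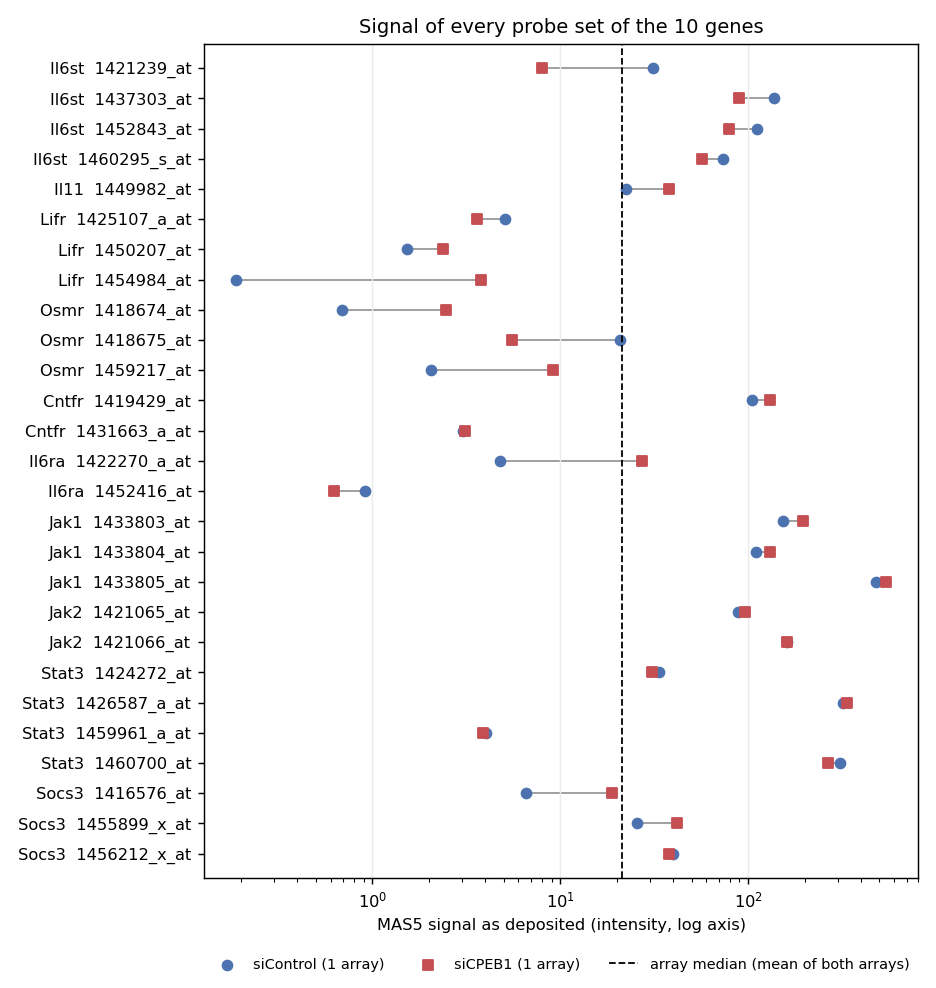
MAS5 signal (x axis, log scale) of each of the 27 probe sets in the siControl array (circles) and the siCPEB1 array (squares), 1 array each, with the array median dashed. All 4 probe sets of Il6st had the lower signal in siCPEB1, those of Jak1, Jak2 and Stat3 above the median lie close together, and those of Lifr and Osmr lie below the median in both arrays.

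Il6st lies on chromosome 13 of GRCm38.p6 from 112464070 to 112506860. It was the only receptor chain of the 10 genes with more than 1 passing probe set, so agreement in direction could be examined in it alone. All 4 of its probe sets had lower signals in siCPEB1. At probe set 1437303_at, which represents the gene, the signal was 138 in siControl and 89.9 in siCPEB1, a log2 ratio of -0.66. At 1452843_at it was 112 and 78.7 (log2 ratio -0.54), and at 1460295_s_at it was 73.3 and 56.8 (log2 ratio -0.41). These 3 probe sets were above the array median in both arrays and were 1.58-, 1.46- and 1.33-fold lower, each more than the pooled SD of 0.37 but less than 2-fold. The last, in the dim class, was inside the SD of 0.56 of that class. Of all passing genes, 57.1% had a log2 ratio between -0.37 and 0.37, so values beyond the pooled SD were common.

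The last probe set of Il6st, 1421239_at, differed most, with signals of 31.0 and 8.01 and a log2 ratio of -1.99. Its siCPEB1 signal was below the array median, and with that signal set at the median it was at least 1.48-fold lower. By that bound no probe set of the 10 genes was called lower, where 3.18% of all probe sets treated in the same way were. Dim probe sets were called more often in any case, with 7.22% of the dim class lower. It shares its source sequence with 1460295_s_at, which had the smallest difference of the 4. Across the 4 probe sets the log2 ratios spanned 1.58, whereas the median span over 554 genes with 4 passing probe sets was 0.57, and 93.7% of these genes had a smaller span.

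Agreement in direction was not rare on these arrays, since 26.5% of the genes with 4 passing probe sets had all of them below 0. Fewer, 8.84%, had all 4 at or below the value of -0.41 that was the highest of Il6st. By its representative probe set, Il6st was in the lower part of the array, with 9.77% of passing genes below it. In the middle class, 9.61% of probe sets had a ratio as low as that of 1437303_at and 13.3% as low as that of 1452843_at. In the dim class, 26.8% were as low as 1460295_s_at and 0.532% as low as 1421239_at. The lower signal of Il6st was thus shared by its probe sets, was larger than in most genes at its representative probe set, and was past 2-fold at 1421239_at alone, whose bound was not.

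Cntfr, which encodes the chain that binds ciliary neurotrophic factor and is held in the membrane by a lipid anchor, lies on chromosome 4 from 41657498 to 41697091. Its probe set 1419429_at had signals of 105 and 131 (log2 ratio 0.28), and 28% of middle-class probe sets had a ratio at least as high. Its other probe set, 1431663_a_at, had signals of 3.04 and 3.11, below the 25th percentile of both arrays. The difference at the first was smaller than the SD between probe sets of one gene.

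The 3 chains left were near or below the array median, where MAS5 ratios carry little information. Lifr, whose product pairs with gp130 for leukemia inhibitory factor and ciliary neurotrophic factor, lies on chromosome 15 from 7090610 to 7197489. It had signals of 5.12 and 3.60 at 1425107_a_at, of 1.53 and 2.37 at 1450207_at and of 0.189 and 3.80 at 1454984_at. All 6 values were below the array medians, so the log2 ratios of these probe sets, from -0.55 to 4.28, have no bound on either side.

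Osmr, which encodes the chain for oncostatin M and lies beside Lifr on chromosome 15 from 6813568 to 6874968, had signals of 20.9 and 5.53 at 1418675_at. The siControl value was just under its array median, and the siCPEB1 value was under the 25th percentile of its array (5.61). The probe set thus failed both parts of the signal filter. The other two pointed the other way, with 0.689 and 2.47 at 1418674_at, which has the same source sequence as 1418675_at, and 2.06 and 9.19 at 1459217_at. Il6ra, on chromosome 3 from 89869324 to 89913196, encodes the chain that binds interleukin 6. Its probe set 1422270_a_at went from 4.77 to 27.3, above the median in siCPEB1 only, at least 1.27-fold higher against the siControl median, and its other probe set, 1452416_at, had signals of 0.915 and 0.623. For both genes the probe sets were opposed in sign, but 1452416_at was below the 25th percentile of both arrays, so its sign carries little information. No probe set of either gene passed the filter, so no direction can be given.

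**Figure D2:**
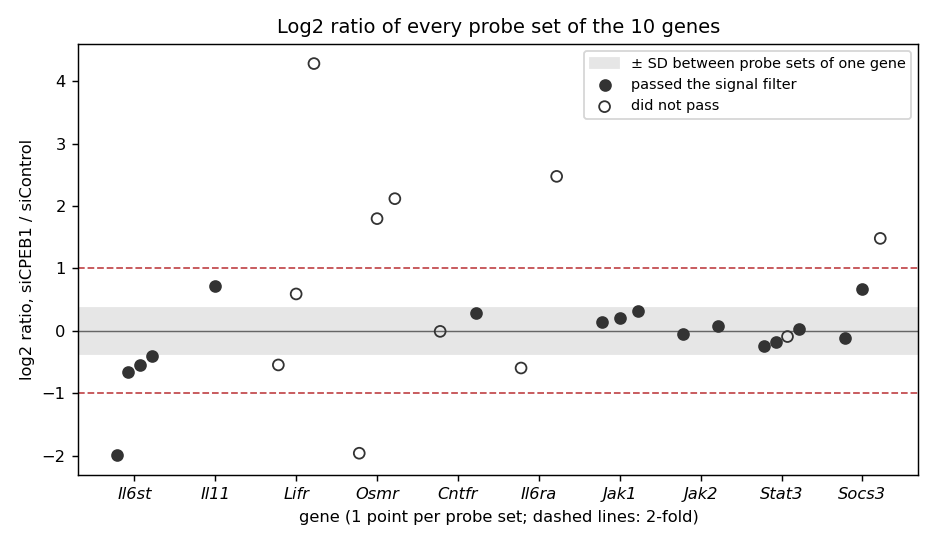
Log2 ratio of siCPEB1 over siControl (y axis) for each probe set of the 10 genes, filled where it passed the signal filter and open where it did not, with 2-fold dashed and the SD of 0.37 between probe sets of one gene in grey. The filled points of Jak1, Jak2, Stat3 and Cntfr lie inside the grey band, those of Il6st below it, and the widest scatter is that of the open points of Lifr, Osmr and Il6ra.

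The kinases differed little. Jak1, which is bound to gp130 and is its main signalling kinase, lies on chromosome 4 from 101151974 to 101265282 and had higher signals in siCPEB1 at all 3 probe sets. They were 480 and 542 at 1433805_at (log2 ratio 0.13), 110 and 130 at 1433804_at (0.20), and 153 and 197 at 1433803_at (0.32). The 3 share 1 source sequence, so their agreement is that of 1 transcript measured 3 times. Among genes with 3 passing probe sets, 26% had all of them above 0 and 15.8% had all at or above 0.13, the lowest log2 ratio of Jak1. The SD among the 3 log2 ratios was 0.096.

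Jak2, on chromosome 19 from 29251803 to 29313095, which acts beside JAK1 on gp130, had close signals in both arrays. They were 162 and 160 at 1421066_at (log2 ratio -0.05) and 88.1 and 95.8 at 1421065_at (0.08), again from 1 source sequence. The signs were opposed and both values were far inside the spread between probe sets of one gene.

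Stat3, on chromosome 11 from 100886806 to 100939594, was measured at 4 probe sets. The representative probe set, 1426587_a_at, had signals of 321 and 336 (log2 ratio 0.02), and 1460700_at had 308 and 267 (-0.25). The remaining one that passed, 1424272_at, had 33.8 and 30.7 (-0.18). The last, 1459961_a_at, was below the 25th percentile in both arrays (4.03 and 3.89). The log2 ratios of the passing probe sets averaged -0.13 with an SD of 0.14, and all 3 were inside the pooled SD of 0.37. In the bright class, whose SD between probe sets of one gene was 0.18, 1460700_at exceeded that SD and 1426587_a_at did not. Of the 3 passing probe sets, 2 were below 0 and the representative one was near 0, so they give no common direction for Stat3 mRNA. The arrays measure mRNA and say nothing of the phosphorylated STAT3 protein that transmits the signal.

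**Figure D3:**
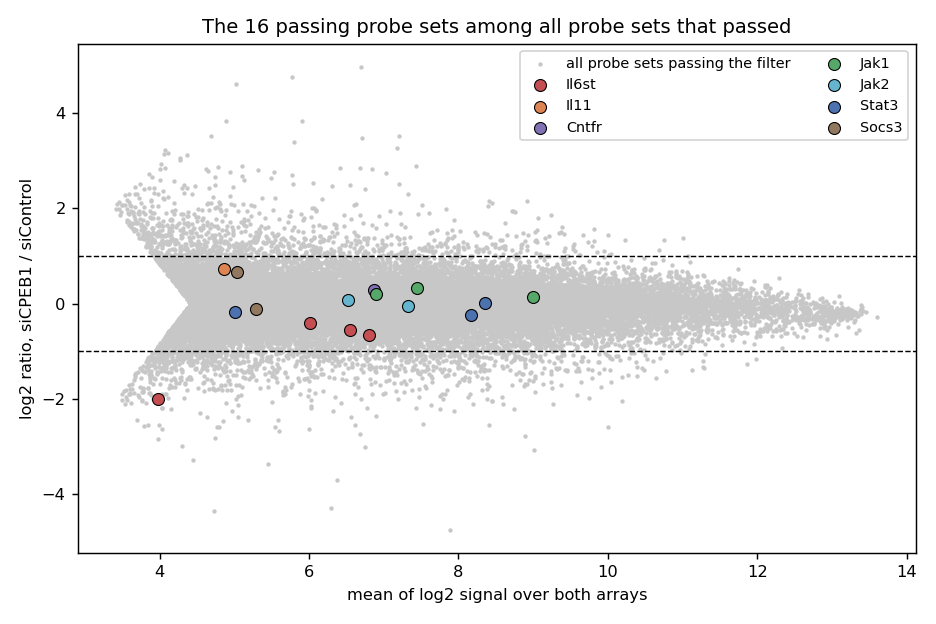
Log2 ratio of siCPEB1 over siControl (y axis) against the mean log2 signal of both arrays (x axis) for the 23686 probe sets that passed (grey) and the 16 of these genes (coloured), with 2-fold dashed. The Jak1, Jak2 and Stat3 points lie inside the grey cloud near 0, 3 Il6st points lie below its centre and 1 at its dim lower edge, where the filter gives the cloud its slanted border.

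Il11, the only ligand among the 10 genes, lies on chromosome 7 from 4772373 to 4782907 and has 1 probe set. Its signal was 22.4 in siControl and 38.0 in siCPEB1, 1.65-fold higher (log2 ratio 0.72). It was just above the median in siControl, and 15% of dim-class probe sets had a ratio at least as high, so the value is not set apart from dim probe sets in general. With 16 added to both signals the log2 ratio was 0.47.

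Socs3, on chromosome 11 from 117966079 to 117970336, encodes an inhibitor that binds gp130 and JAK and is made in response to STAT3, so its mRNA is often read as a sign of pathway activity. Its 3 probe sets gave 3 answers. At 1456212_x_at the signals were 40.0 and 38.2 (log2 ratio -0.11), at 1455899_x_at they were 25.6 and 42.0 (0.67), and at 1416576_at, below the median in both arrays, they were 6.56 and 18.8. Both passing probe sets carry the suffix for probes that may hybridize to other transcripts as well. The choice of probe set decides the value, since the mean of the passing pair was 0.28 with an SD of 0.55, and no direction can be given for Socs3.

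Beyond these genes, 118 others of the pathway and its surroundings were listed by role. The lists were written with earlier results of these data known. A share of calls above that of all genes may thus come from the choice of genes, and it is given as a description only. Of the 118 genes, 102 were on the array under a single symbol and 71 passed the filter. By 1 probe set per gene, 5 of 71 (7.04%) were called higher and 8 (11.3%) lower, where 4.55% of all passing genes were called higher and 3.9% lower. The list median was -0.03. The calls were in the ligands, receptor trafficking, SOCS genes, STAT3 targets and other cytokine receptors, and none was among the other JAK kinases, the other STAT factors, the PIAS and phosphatase inhibitors and the SHP2-MAPK arm.

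Among the gp130 cytokines, Il6, the founding cytokine of the family, was called lower. Its signal was 954 in siControl and 461 in siCPEB1 at its 1 probe set, 2.13-fold lower (log2 ratio -1.09). Lif had 31.4 and 19.0, the latter below the array median (log2 ratio -0.77), and Osm had 107 and 77.3 (log2 ratio -0.51). On the other side, Clcf1, a ligand that acts through Cntfr, had 35.8 and 72.5 (log2 ratio 0.98, and at least 0.35 at each of its 3 probe sets), and Ctf1, cardiotrophin 1, had 119 and 139 (0.18). Of the ligands that passed, 3 were thus lower in siCPEB1 and 2 higher, besides Il11, and ligands that use Lifr were on both sides. Ebi3 and Il31 were below the median in both arrays.

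The other receptor chain that passed, Il27ra, had signals of 40.4 and 33.9 (log2 ratio -0.29). Among genes that cut or sort these receptors, Rhbdf2, a partner of the sheddase Adam17, went from 66.2 to 11.3, at least 3.16-fold lower. Adam10, a sheddase itself, had 945 and 879 (log2 ratio -0.15), and the ubiquitin ligase Stub1 had 1206 and 1360 (0.13).

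The kinases and STAT factors outside the 10 genes had small ratios, with no call. Tyk2 had signals of 116 and 137 (log2 ratio 0.20) and Jak3 29.0 and 35.6 (0.25). Stat5b had 163 and 204 (0.28) and Stat6 251 and 232 (-0.15), although the other probe set of Stat6 had a log2 ratio of -0.84. With so few genes, few calls would be made at the share called over all genes, so their absence sets these genes apart from no others. No gene was called among the inhibitors either, such as Pias4, with 390 and 468 (0.22), and Ptpn2, with 695 and 805 (0.17), or in the arm of Ptpn11, the phosphatase that links gp130 to MAPK, with 698 and 598 (-0.26), and Map2k1, with 1120 and 1211 (0.07).

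The SOCS genes divided. Socs1, which blocks JAK kinases, had signals of 37.6 and 14.9, a log2 ratio of -1.37 that is at least 1.80-fold lower with the siCPEB1 signal at the median and so not firmly past 2-fold. Socs2, an inhibitor of growth hormone signalling, had 521 and 973 at its representative probe set (log2 ratio 0.86), 410 and 851 at a second (1.01), and from -0.06 to 1.41 over the 4 that passed. Socs4 had 189 and 135 (-0.53), Socs5 189 and 138 (-0.50), Socs6 230 and 304 (0.36), Socs7 433 and 486 (0.13) and Cish 63.7 and 57.6 (-0.19). The median of the 7 was -0.19, with 3 above 0 and 4 below.

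**Figure D4:**
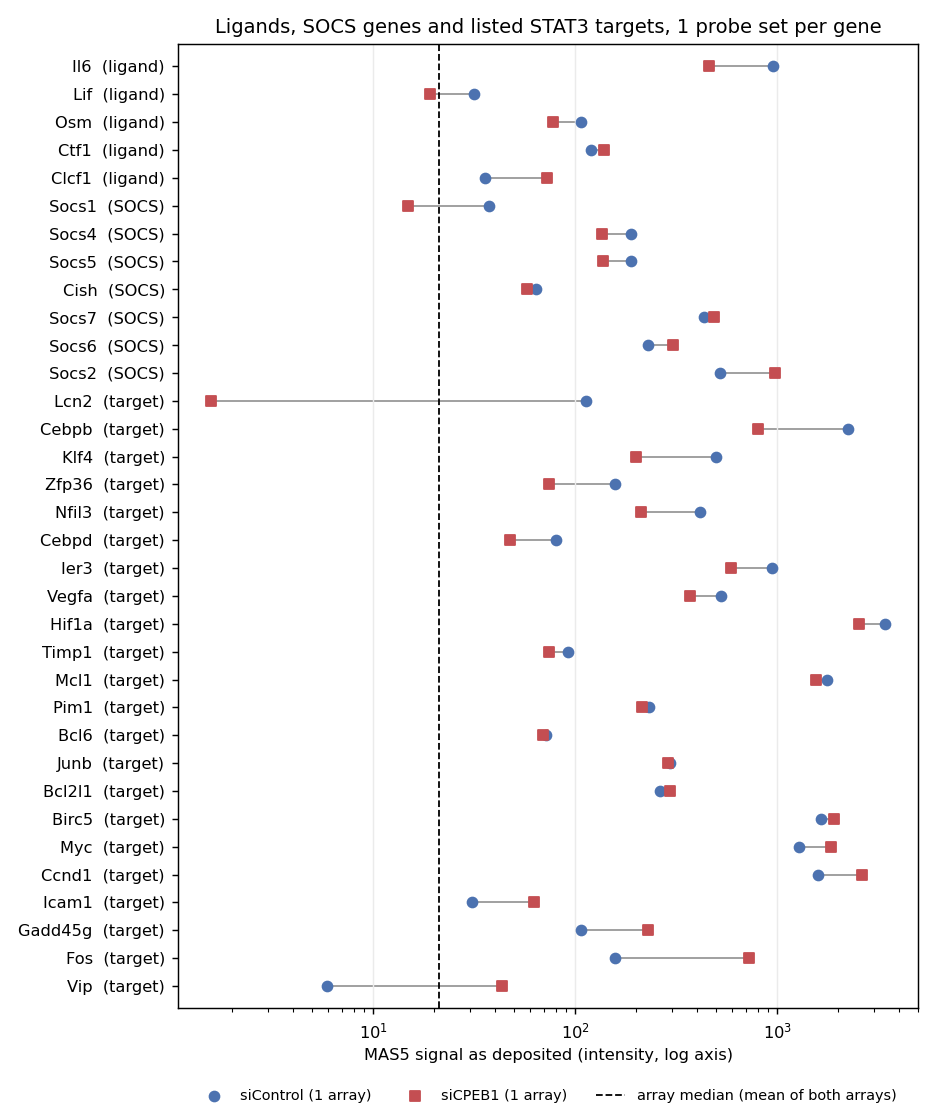
MAS5 signal (x axis, log scale) in siControl (circles) and siCPEB1 (squares) of the gp130 ligands, the other SOCS genes and the listed STAT3 targets that passed the signal filter, and of Lcn2, which did not, 1 probe set per gene. Cebpb, Klf4, Zfp36 and Nfil3 had the lower signal in siCPEB1 and Fos, Gadd45g and Vip the higher one, while targets such as Junb, Pim1 and Bcl2l1 nearly coincide.

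Of 30 genes known as STAT3 targets, 21 passed, and they went both ways. Lower by more than 2-fold were 4 (19.0%, against 3.9% of all passing genes) and higher were 3 (14.3%, against 4.55%), with 13 below 0 and 8 above, and a median of -0.15. Because the list was written with earlier results known, these shares do not measure an excess of calls among STAT3 targets. The lower ones were Cebpb, a transcription factor of the acute phase response, Klf4, a factor of pluripotent cells, Zfp36, which destabilizes AU-rich mRNAs, and Nfil3, a basic leucine zipper repressor. Cebpb had signals of 2240 and 802 (log2 ratio -1.52) and Klf4 had 496 and 200 (-1.35), each with a like value at a second probe set (-1.47 and -1.63). Zfp36 had 158 and 74.0 (-1.13) and Nfil3 had 415 and 212 (-1.01). Nfil3 was not past 2-fold with no scaling (-0.97), quantile normalization (-0.98), loess (-0.997) or 16 added to both signals (-0.96), and Zfp36 was not with 16 added (-0.98). Whether STAT3 had a part in these differences, or in those of the targets called higher, was not tested.

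The targets called higher were Fos, Gadd45g and Vip. Fos, an immediate early gene, had signals of 158 and 728 (log2 ratio 2.16). Gadd45g, a stress-induced gene, had 107 and 228 (1.05), and was not past 2-fold with 16 added (0.95). Vip, the neuropeptide that gp130 cytokines induce in sympathetic neurons, went from 5.94 to 43.5, at least 2.02-fold higher after its siControl value was raised to the array median. Other targets were nearer to 0, such as Junb with 294 and 288 (-0.07), Pim1 with 231 and 215 (-0.15), Bcl2l1 with 264 and 294 (0.11) and Mcl1 with 1767 and 1559 (-0.22). Other probe sets of Pim1 and Mcl1 reached -0.54 and 0.58. Ccnd1, with 1590 and 2620 (0.68), and Hif1a, with 3408 and 2553 (-0.46), were in between. So were Cebpd (-0.80), Ier3 (-0.71) and Vegfa (-0.54) on the lower side, and Icam1 (0.98) and Myc (0.48) on the higher side. Lcn2, which encodes an iron-binding acute phase protein, was excluded by the filter because its signal went from 113 to 1.58, under the 25th percentile, which is at least 5.41-fold lower with that signal at the median.

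The genes whose promoter sites are printed above did not go one way. Zfp36 was called lower, Icam1 had signals of 30.9 and 62.6 (log2 ratio 0.98), Bcl6 had a log2 ratio of -0.08 at one probe set and 1.20 at the other, and Gfap, with 13.8 and 21.4, and Socs3 had no clear direction.

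Other receptors that use JAK kinases were set beside Il6st. Of 29 on the array 12 passed, with a median log2 ratio of 0.48, 8 above 0 and 4 below. Il15ra and Il12rb1 were called higher (16.7%, against 4.55% of all passing genes) and 1 was lower (8.33%, against 3.9%). Here too the list was written with earlier results known, so the shares are descriptions only. Il15ra, the chain that presents interleukin 15, had signals of 31.3 and 98.9 (log2 ratio 1.62), and its other probe set had a log2 ratio of 1.21. Il12rb1 had 7.18 and 27.4, at least 1.27-fold higher and so not firmly past 2-fold. Called lower was Ifngr2, a chain of the interferon gamma receptor, with 340 and 153 (log2 ratio -1.19; its other one had -0.38). Ifnar2 had 436 and 405 (-0.15) and Il10rb had 302 and 557 (0.84). The log2 ratio of Il6st (-0.66) lay below those of 10 of the 12 receptors and above those of Ifngr1 (-0.91) and Ifngr2.

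**Figure D5:**
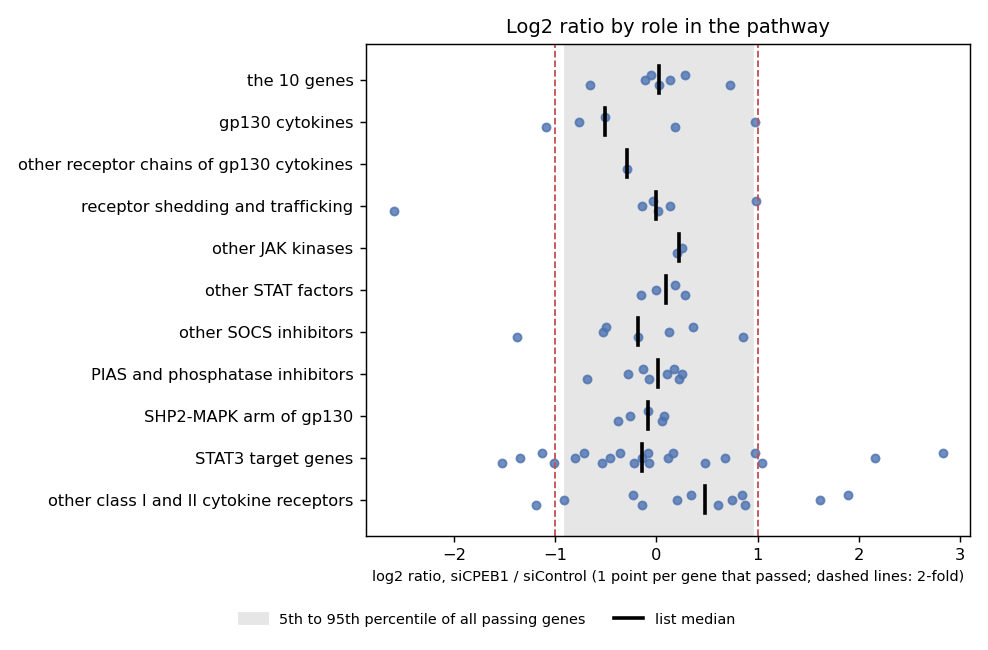
Log2 ratio of siCPEB1 over siControl (x axis) for each gene that passed the filter, by role in the pathway (rows), with list medians as black bars, 2-fold dashed and the 5th to 95th percentile of all 11562 passing genes (-0.90 to 0.96) in grey. Kinases, STAT factors and PIAS and phosphatase genes lie inside the grey band, and points outside it are in the ligand, trafficking, SOCS, STAT3 target and cytokine receptor rows.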

How the data were processed

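Per the submitters' processing notes, the authors obtained probe set values by MAS5 in Affymetrix Expression Console. The deposited table holds linear intensity values without detection flags. MAS5 background subtraction leaves dim signals, and so their ratios, imprecise, and precision is limited by having a single array for each condition.

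Each array was divided by its 75th percentile over 45037 probe sets (64 control probe sets left out), and the log2 ratio was taken. Symbols came from the platform annotation, updated by gene identifier to RefSeq (34945 probe sets with 1 symbol, 932 with several, 9160 with none listed). A gene was represented by 1 probe set, by preference one that passed the filter, then one without an _x_at or _s_at suffix, then the one of highest signal. Named were the 10 genes, the called genes of each pathway list and the 2 of highest signal in each. The members, the 10 other lists (118 genes), the 5 marker lists and the alternatives were chosen with earlier results of these data known. The other ligands, trafficking genes, SOCS genes, targets and receptors were named after their values were seen. Of the listed genes, 18 had no probe set with a single symbol and were not analysed here. The alternatives were 11 other settings and 1 chosen after seeing the data. The steps were tested on simulated data. Python 3.11.15, numpy 2.4.6, pandas 2.3.3, statsmodels 0.14.6 and matplotlib 3.10.9 were used.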

Additional observations from a re-analysis of the deposited data

How the results depend on the processing

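No paired analysis was possible because each condition has 1 array. No alternative reversed a called value. The log2 ratio of Il6st ran from -0.90 to -0.58 over 7 alternatives, and those of Il11, Cntfr and Jak1 also kept their sign, while those of Jak2, Stat3 and Socs3 changed sign in 1 of 7 each. With the mean of its passing probe sets Socs3 had 0.28. With 16 added to both signals, Cpeb1 had -2.58, Lifr -0.12, Osmr -0.80 and Il6ra 1.04. The call of 1 Il6st probe set as lower was lost (0 called) with 16 added, with the array median required in both arrays, with the 75th percentile required in 1 array, and with signals below the median set at it, an alternative chosen after seeing the data. With no filter 5 probe sets of the 10 genes were higher and 2 lower. Pathway genes called higher numbered 8 with no scaling (7 lower), 3 with 16 added (5 lower), 13 with no filter (13 lower), 3 with the median in both arrays (6 lower), 2 with the 75th percentile (6 lower) and 4 with dim signals at the median (8 lower). Those last 8 included Lcn2 but not Socs1, so they were not the same genes as in the main setting. Over all probe sets, higher and lower calls numbered 410 and 509 with 16 added, 6158 and 5587 with no filter, 485 and 672 with the median in both arrays, 244 and 443 with the 75th percentile, and 615 and 760 with dim signals at the median. Of the values of single named genes and probe sets, 343 moved little and 17 moved more, none with a called direction turned. Signals below the median limit what can be said of Lifr, Osmr, Il6ra and Socs3, and the spread between cultures was not measured.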
